A study of Homo sapiens with 36 samples.

Results

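The response of HT-29 cells to an oxyquinoline derivative (OD) was measured as messenger RNA in 6 libraries, chosen by their labels as the OD and control libraries of this line, out of 36 libraries in the series. HT-29 is a human colorectal adenocarcinoma line with epithelial growth. It was kept in McCoy's 5A medium with serum, and no differentiation period is given for it. The groups hold 3 libraries each. In the OD group, compound 4896-3212 from a 10 mM stock in dimethyl sulfoxide (DMSO) was added to 5 µM for 24 h. The control group received 0.5 µl DMSO per ml medium, the amount that carried OD. A CoCl2 group of the same line (300 µM from a stock in water, 24 h) and 6 libraries of differentiated Caco-2 cells (OD and control) serve only as reference. The labels describe the samples as biological replicates of one line and do not say how the cultures were separated, so the spread below is that between these cultures. Of 60591 annotated genes, 15812 had enough reads to be tested.

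Cells adapt to low oxygen through hypoxia-inducible factors (HIF), transcription factors that prolyl hydroxylases mark for degradation while oxygen, iron and 2-oxoglutarate are at hand. Cobalt ions and many oxyquinolines block these iron-dependent enzymes and stabilize HIF under normal oxygen, which is why both are used as chemical hypoxia. HIF raises genes of glucose uptake, glycolysis, angiogenesis and collagen hydroxylation. Intestinal epithelium lives under a steep oxygen gradient, and inflammatory signals such as interferon and NF-kB act on the same cells.

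The 6 libraries held between 12925719 and 22332639 counts, and 3 counts, the level taken as a detection floor, equalled 0.134 to 0.232 CPM (counts scaled to the effective library size in megareads). Reads carried no molecular identifiers, so intervals and floors cover counting error only. Libraries of one group correlated at 0.993 to 0.994 across genes and those of different groups at 0.950 to 0.956, and no library stood apart. Of 12 colon epithelial markers, all passed 10 counts in at least 1 library, and their summed level was 6290 to 6374 CPM in controls and 8140 to 8866 CPM with OD. Of 14 markers of fibroblast, endothelial, blood and immune cells, 10 stayed at or under 10 counts in each of the 6 libraries. Among them were the defining collagen gene COL3A1, the leukocyte gene PTPRC and the endothelial gene CDH5. The fibroblast marker LUM did have reads, 27, 37 and 61 in controls and 33, 33 and 32 with OD. So did the endothelial marker PECAM1, with 34, 28 and 35 against 23, 18 and 18, and neither was called. The summed level of the 14 was 7.66 to 9.04 CPM in controls and 27.9 to 28.9 CPM with OD, with ITGAM (log2 fold change 2.84) and COL1A1 (2.01) called higher. Their part in the results below was not tested.

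With OD, 2699 of the 15812 genes were called (edgeR quasi-likelihood test, false discovery rate (FDR) under 0.05 and a change of more than 2-fold), 17.1% of those tested. Of these, 1502 rose (9.50%) and 1197 fell (7.57%). Scaling by library size alone moved the median of all genes by -0.14 on the log2 scale and turned the split to 1225 higher and 1596 lower. Without the fold limit 10876 genes passed (68.8%), 34.7% upward and 34% downward, so that a small change passes easily at this replicate spread. The groups did not overlap for 71.1% of genes tested, which makes separation of the groups by itself a weak criterion. All log2 fold changes below are OD over control on the fitted CPM scale. The standard error (SE) is the absolute log2 fold change divided by the square root of the test statistic F of the same fit.

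By fold change among genes with at least 100 counts on average, the top of the list was led by the chemokine CCL22, the RNA-binding protein gene RBPMS2, the long noncoding RNA LINC01564, the aldo-keto reductase AKR1C1 and the fatty acid hydroxylase CYP4F11. CCL22 counted 0, 2 and 3 reads in controls against 250, 191 and 184 with OD, a ratio of 137-fold (95% exact counting interval 58.2 to 422). AHNAK2, coding for a giant scaffold protein, stood at 4.84, 4.65 and 4.77 CPM in controls and 102, 79.2 and 91.8 CPM with OD, a change of 4.26 ± 0.095 (SE) that left no overlap. AKR1C2, LUCAT1, SDCBP2, CXCL10, ACSS2, PIM1, GBP4, IL32 and CSF1 followed, at 3.55 to 4.18. AKR1C1 and AKR1C2 are near-identical copies whose reads the counting may have split, and LINC01564 overlaps the start of GCLC on the opposite strand. Whether counting used strand is not stated, so the value of LINC01564 is uncertain.

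At the other end stood EGR1, NOX1, the surface glycoprotein CD200, the Wnt antagonist DKK1 and the vasoconstrictor EDN1. EDN1 measured 24.1, 27.0 and 25.6 CPM in controls and 2.54, 2.56 and 2.71 CPM with OD (FDR = 3.8e-19). CD200 went from 37.8, 33.7 and 32.0 CPM to 2.48, 2.27 and 2.66 CPM. In both genes every control library lay far above every OD library. LINC00261, the decarboxylase DDC, the phosphatase PTPRO, SLC38A11, the water channel AQP5, the matricellular protein CCN2, LINC01963, the muscle giant NEB, CLEC3A and AC010478.1 completed the lowest 15, between -3.25 and -2.50. 

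By absolute amount the picture was another. The ferritin light chain FTL gained most, from 1213 ± 40.8 CPM (SD, n = 3) to 3219.8 ± 36.0 CPM (SD, n = 3). The fatty acid desaturase SCD, GAPDH, the thioredoxin reductase TXNRD1, the chaperone HSPA5, the autophagy receptor SQSTM1, PGK1, the squalene epoxidase SQLE, the chromatin protein HMGA1 and NDRG1 came next. The largest loss was that of SLC12A2, the cotransporter that loads chloride into secretory epithelium, which went from 857 ± 22.8 to 299.8 ± 16.1 CPM (SD, n = 3 each). Among the other 10 largest losses were the annexin ANXA13, the EGFR inhibitor ERRFI1, the retinal dehydrogenase ALDH1A1, the kinetochore protein CENPF, ENC1, the paraspeckle protein SFPQ, the polyamine enzyme ODC1 and the receptor GPRC5A.

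**Figure D1:**
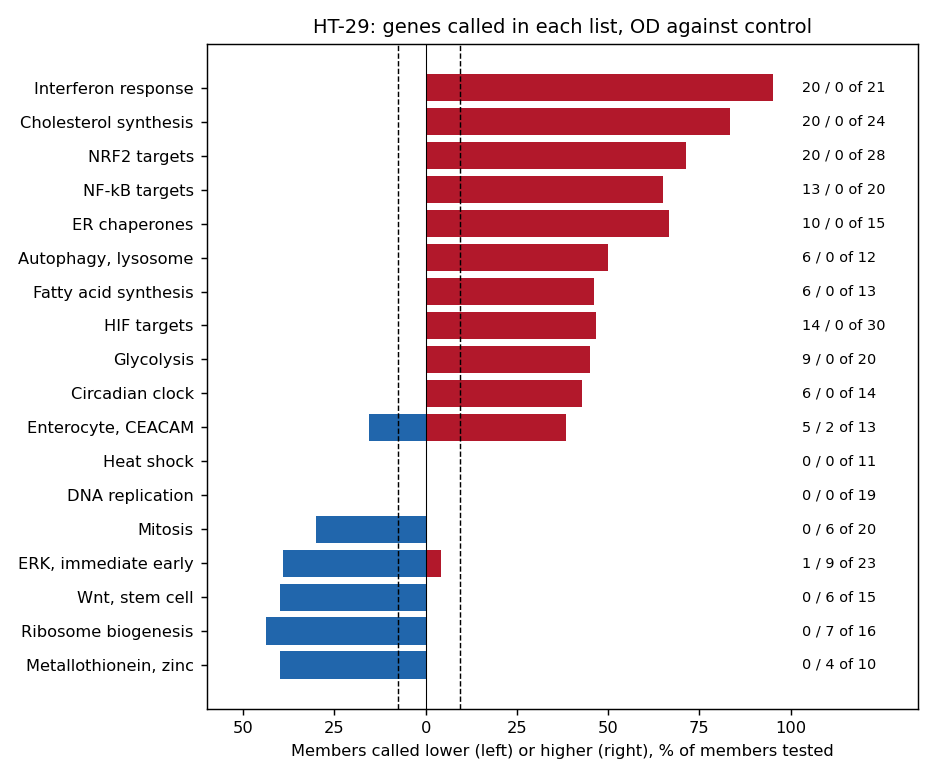
Share of tested members called higher (red, right) or lower (blue, left) with OD against control in HT-29, for 18 gene lists. The numbers at the right give members called higher and lower of those tested, and the dashed lines mark the shares over all 15812 genes, 9.50% higher and 7.57% lower.

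Interferon-stimulated and antigen presentation genes rose almost without exception. Interferons act through JAK kinases and the transcription factors these activate, which bind a short element in promoters of antiviral genes, and interferon gamma adds the class I presentation machinery. Of 21 such genes tested, 20 were called higher and 0 lower, with a median of 2.12 against 0.0057 over all genes tested. Every one of the 21 passed the FDR threshold upward. IFIT1, which binds foreign RNA lacking a host cap, measured 21.4, 33.96 and 28.4 CPM in controls and 177, 230.3 and 178 CPM with OD (2.79 ± 0.16, FDR = 1.1e-14). ISG15, a ubiquitin-like modifier, measured 36.1, 49.4 and 47.1 CPM and 191, 229.6 and 202 CPM. In both genes the lowest OD library lay well above the highest control, and replicate 2 was the highest of its group in both groups.

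OASL, of the oligoadenylate synthetase family, changed by 2.51. In antigen presentation, the peptide transporter TAP1 rose by 3.02 ± 0.095, and the immunoproteasome subunit PSMB9 by 3.25 ± 0.18. These genes overlap on opposite strands of chromosome 6, so part of their reads could be exchanged if strand was not used. The class I heavy chain HLA-B, whose reads may be shared with other HLA genes, changed by 1.92. Outside the list, XAF1, an apoptosis-linked interferon target, moved from 1.87, 2.08 and 2.22 CPM to 9.57, 13.1 and 10.9 CPM.

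Replicate 2 was the highest library in all 3 HT-29 groups (control, OD and CoCl2) for 14 of the 21 genes (66.7%), against 3.93% of all genes tested, a feature noticed after the values were seen. OD libraries were above control libraries within each number as well, and a fit with the replicate number as a block called the same number of these genes, 20, with a median SE of 0.072 in place of 0.106.

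The element bound by the interferon factors, searched as TTTC, any 2 bases and TTTC on both strands in the 250 bases before the annotated start, was present in 2.37% of 10718 tested genes with a promoter in RefSeq, in 5.59% of 931 called higher and in 2.92% of 650 called lower. Of 15 interferon list genes with a promoter, 8 held it. Both the letters and the choice of this motif were added after the list's values were known, and a match describes letters, not binding. Windows of 100 bases around the matches are shown for 3 raised genes to let the element be seen, from RefSeq promoters on GRCh38.p14, 5′ to 3′ along the gene, with each match in capitals. They lie at chr10:89392462-89392561, plus strand (IFIT1), chr1:1013339-1013438, plus strand (ISG15) and chr14:94110583-94110682, plus strand (IFI27). All 3 hold 2 matches, and in ISG15 they overlap.
IFIT1: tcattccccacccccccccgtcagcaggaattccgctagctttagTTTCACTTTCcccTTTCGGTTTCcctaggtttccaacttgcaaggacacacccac
ISG15: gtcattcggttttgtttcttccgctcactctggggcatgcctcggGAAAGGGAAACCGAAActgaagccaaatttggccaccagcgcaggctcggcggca
IFI27: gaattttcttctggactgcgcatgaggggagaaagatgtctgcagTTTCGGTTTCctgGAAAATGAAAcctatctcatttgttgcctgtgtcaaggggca

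**Figure D2:**
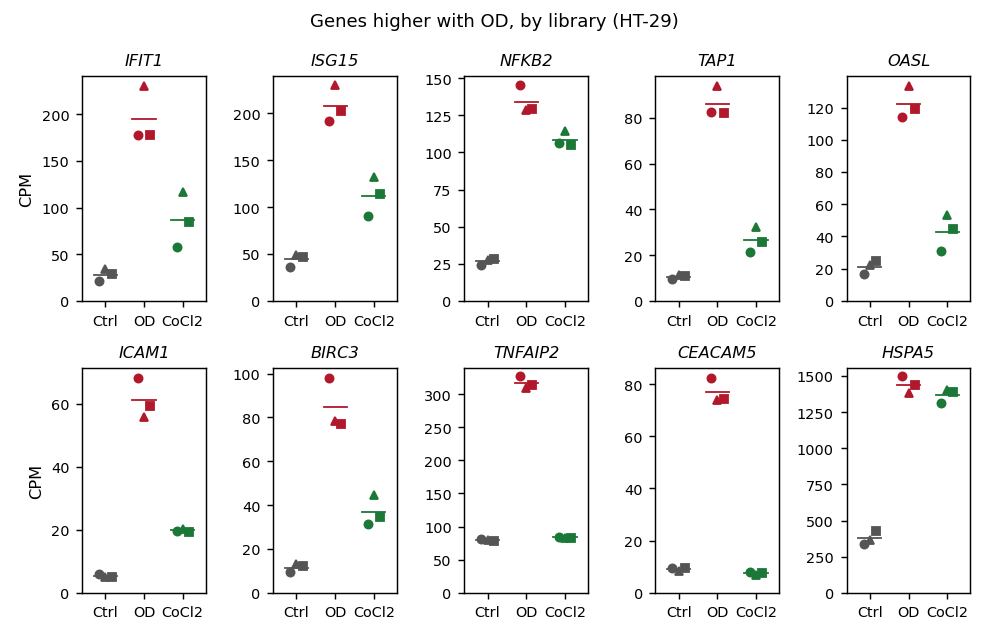
CPM in each HT-29 library for 10 genes that rose with OD, in control, OD and CoCl2 cells (circle, replicate 1, triangle, replicate 2, square, replicate 3, bar, group mean). The OD libraries lie above all controls in each panel, with TNFAIP2 and CEACAM5 near control level in CoCl2 cells and HSPA5 near the OD level there.

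Inflammatory genes rose in a selective manner. NF-kB is a family of transcription factors held in the cytoplasm by inhibitors, and it induces chemokines, adhesion molecules, survival factors and its own inhibitors. Of 20 targets tested, 13 were called higher and 0 lower, with a median of 1.87. Among signalling components, NFKB2, the precursor of the noncanonical subunit, measured 24.4, 27.6 and 27.9 CPM in controls and 145, 128 and 129 CPM with OD. RELB, its partner, changed by 2.67 and the inhibitor NFKBIA by 1.26. NFKB1, the canonical precursor, was at 60.9, 63.0 and 65.6 CPM against 60.2, 57.1 and 51.4 CPM (-0.17 ± 0.056) and was not called.

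Among effectors, the adhesion molecule ICAM1 rose from 6.003, 4.98 and 4.88 CPM to 68.2, 55.7 and 59.3 CPM (3.55 ± 0.09, FDR = 1e-21). The apoptosis inhibitor BIRC3 changed by 2.86 and TNFAIP2 by 1.99. Several induced ligands had hardly any control reads. The cytokine TNF counted 3, 2 and 1 reads in controls and 20, 14 and 15 with OD, a ratio of 8.92-fold (95% exact counting interval 3.82 to 25.5), and LTB, lymphotoxin beta, 1, 3 and 9 against 28, 32 and 20, or 6.72-fold (95% exact counting interval 3.72 to 13.2). CXCL10, a T cell chemokine that interferon also induces, measured 0.516, 0.930 and 0.751 CPM and 10.1, 11.8 and 10.7 CPM. IL32 and the macrophage growth factor CSF1 changed by 3.59 and 3.55. The neutrophil chemokines split, since CXCL8 rose by 2.06 ± 0.16 while CXCL1 stood at 1.55, 2.79 and 2.14 CPM against 1.66, 1.86 and 1.54 CPM, with overlapping groups. IER3, an early NF-kB and ERK target, had a log2 fold change of -0.65 and was not called.

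Genes of protein folding in the endoplasmic reticulum (ER) rose in their majority. When unfolded protein accumulates there, the sensors IRE1, ATF6 and PERK induce chaperones and degradation factors, and PERK in addition feeds the ATF4 and DDIT3 branch. Of 15 ER chaperone genes, 10 were called higher and 0 lower (median 1.20). HSPA5, the central ER chaperone BiP, measured 337, 367 and 426 CPM in controls and 1497, 1381 and 1438 CPM with OD (1.93 ± 0.06, FDR = 5.8e-20). MANF and SDF2L1, small ER cofactors, changed by 1.80 and 1.80, CRELD2 by 1.47 and DNAJB9 by 1.80. XBP1, a transcription factor of this response, was at 526, 587 and 621 CPM against 449.6, 439 and 445 CPM. It lay below control (-0.38 ± 0.05) and was not called.

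Of 21 genes of the ATF4 branch, 2 were higher, DDIT3 (1.23) and GDF15, and 2 lower, shares near those over all genes (9.50% and 7.57%), with 9 higher and 8 lower at FDR alone. Of 11 cytosolic heat shock genes none was called, with a median of 0.0085 and 4 higher and 3 lower at FDR alone. The ER stress element, searched on both strands as CCAAT, any 9 bases and CCACG, was found in 15 of the 10718 promoters (0.140%) and in 6 of the 15 ER chaperone genes, a search also added after the values were known. It is shown for 2 raised genes and for XBP1, at chr9:125241351-125241450, minus strand (HSPA5), chr22:49918513-49918612, plus strand (CRELD2) and chr22:28800570-28800669, minus strand (XBP1), again with the match in capitals and read on either strand.
HSPA5: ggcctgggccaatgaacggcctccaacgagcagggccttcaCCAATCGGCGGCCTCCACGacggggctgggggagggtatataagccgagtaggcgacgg
CRELD2: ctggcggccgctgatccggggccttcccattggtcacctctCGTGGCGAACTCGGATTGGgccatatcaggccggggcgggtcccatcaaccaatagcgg
XBP1: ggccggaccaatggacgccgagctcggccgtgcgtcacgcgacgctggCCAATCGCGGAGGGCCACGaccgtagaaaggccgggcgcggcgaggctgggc

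Cholesterol synthesis genes rose. The factors SREBF2 and SREBF1 switch on cholesterol and fatty acid genes when membrane sterol is low. Of 24 cholesterol synthesis genes, 20 were called higher and 0 lower, with a median of 1.72. INSIG1, the sterol-sensing retention factor, measured 81.1, 72.1 and 65.6 CPM in controls and 655, 562 and 582 CPM with OD. HMGCS1, the first committed enzyme of the pathway, changed by 2.89 ± 0.063 (FDR = 6.2e-23) and SQLE by 2.19. Of 13 fatty acid genes, 6 were called higher and 0 lower. The acetyl-CoA synthetase ACSS2 had the widest change, from 27.0, 27.2 and 24.7 CPM to 403, 345 and 373 CPM (3.83 ± 0.062). The phosphatidate phosphatase LPIN1 changed by 2.24, FASN by 1.68 and SCD by 1.42. Sterol efflux genes did not move past the threshold in any of 7 tested, 3 being higher and 1 lower at FDR alone.

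Antioxidant genes driven by NRF2, the factor that senses electrophiles through KEAP1, were higher in 20 of 28 (median 1.36). OSGIN1 measured 7.87, 8.64 and 8.56 CPM in controls and 86.9, 83.2 and 80.8 CPM with OD, and GCLC, the catalytic subunit of glutathione synthesis, 62.7, 65.3 and 66.6 CPM and 356, 309.8 and 324 CPM. TXNRD1 changed by 1.94 ± 0.069. SLC7A11, the cystine importer that supplies the same pathway, went the other way (391, 420.2 and 455 CPM against 251, 227 and 219 CPM, -0.86 ± 0.057) without passing the fold limit. HMOX1, the heme-degrading enzyme, changed by 1.36 from 5.62, 4.59 and 4.54 CPM.

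Autophagy and lysosome genes were called higher in 6 of 12 and lower in 0. SQSTM1, the p62 cargo receptor, went from 171, 181 and 181 CPM to 1214, 1138 and 1169 CPM (2.72 ± 0.044). GABARAPL1, of the ATG8 family, changed by 2.11, the phosphoinositide binder WIPI1 by 2.18 and the lysosomal glycoprotein GPNMB by 2.73. In iron metabolism, the ferritin heavy chain FTH1 measured 224, 209 and 150.3 CPM in controls and 738, 879 and 819 CPM with OD. Of 19 iron genes, 3 were called higher and 0 lower, against 9.50% and 7.57% over all genes. Metallothioneins buffer zinc and copper. Of 10 metallothionein and zinc genes, 0 were higher and 4 lower, and MT1E fell from 45.4, 38.8 and 44.4 CPM to 9.73, 14.6 and 12.2 CPM (-1.82 ± 0.098). MT2A stood at 13.2, 13.6 and 16.1 CPM against 6.78, 6.69 and 6.81 CPM (-1.10), and fell short of the fold limit (-0.99) without control replicate 3. Metallothionein genes are similar in sequence, and their reads may be shared.

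HIF targets rose in part. Of 30, 14 were called higher and 0 lower (median 0.81), and of 20 glycolysis genes 9 and 0 (median 0.93). The neuronal enolase isoform ENO2 measured 20.8, 23.0 and 21.3 CPM in controls and 182, 149 and 166 CPM with OD (2.93 ± 0.067). ALDOC, an aldolase isoform, changed by 2.54, and the transcriptional repressor BHLHE40 by 2.67. Transcripts of the collagen prolyl hydroxylase genes P4HA2 (35.9, 42.8 and 44.7 CPM against 248, 203 and 209.8 CPM, 2.41) and P4HA1 (1.67) were higher. The angiogenic factor VEGFA passed FDR at 0.80 ± 0.05, below the fold limit. EGLN3, a HIF hydroxylase that HIF induces, overlapped between groups (16.3, 17.7 and 16.8 CPM against 20.4, 17.5 and 20.2 CPM), and PFKFB3, the activator of phosphofructokinase, changed by 0.45. Of 10 genes that code for HIF subunits and hydroxylases, 8 were tested and none was called, 5 being higher and 1 lower at FDR alone.

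A list that the study drew from Caco-2 libraries for both agents, raised part 115 genes and lowered part 69, was read in HT-29 as well. Its HT-29 values had no part in that choice. Of 108 raised members tested in HT-29, 49 were called higher and 8 lower with OD (median 0.79). Of 46 lowered members, 25 were called lower and 0 higher (median -1.16). By limma on the deposited values 6 of 25 were called lower (median -0.52), and with no filter on low counts 26 of 65 were lower and 2 higher.

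Differentiation genes moved both ways. CEACAM5, CEACAM6 and CEACAM7, adhesion glycoproteins of the apical colonocyte surface, rose together. CEACAM5 measured 9.49, 8.37 and 9.35 CPM in controls and 82.4, 74.1 and 74.1 CPM with OD (3.08 ± 0.072, FDR = 1.7e-22), CEACAM6 21.8, 21.4 and 20.7 CPM and 117, 106 and 119 CPM, and CEACAM7 3.36, 4.16 and 3.72 CPM and 27.0, 24.6 and 25.2 CPM. The genes lie in one cluster on chromosome 19 and share sequence, so part of the reads may be exchanged between them. The surface keratin KRT20 changed by 1.39. Villin, VIL1, the bundler of microvillus actin, fell from 208, 206 and 202 CPM to 88.3, 95.9 and 93.2 CPM (-1.15 ± 0.052). Over 13 enterocyte genes, 5 were higher and 2 lower.

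Counts for mucus and junction genes are read against the shares over all genes, 9.50% higher and 7.57% lower, and those higher lay near that share. Of 18 mucus genes, 2 were higher and 3 lower. The membrane mucin MUC17 rose by 2.57 ± 0.11, while REG4, a goblet and endocrine cell lectin, changed by -1.62 and ATOH1, the factor that sets secretory fate, by -1.97. At tight junctions, of 14 genes 1 was higher and 2 lower. The latter were claudin 1 (114, 129.97 and 125 CPM against 47.5, 45.3 and 48.2 CPM, -1.39) and claudin 2, which forms cation pores (20.7, 17.8 and 18.2 CPM against 5.07, 5.24 and 6.23 CPM, -1.77). Of 5 tested mesenchymal and matrix genes all 5 were called higher (4 by DESeq2 or under library size alone, and 1 of 4 by limma on the deposited values). With no filter on low counts, 5 of 7 were higher and 1 lower. In the reported fit VIM, CDH2, SNAI2, ZEB2 and TWIST1 did not have enough reads to be tested. VIM counted 5, 7 and 7 reads in controls and 1, 2 and 1 with OD, and ZEB2 4, 2 and 6 against 2, 2 and 2. PLAU, the urokinase protease, counted 3, 2 and 7 reads in controls against 134, 89 and 120 with OD, a ratio of 31.2-fold (95% exact counting interval 17.6 to 61.0).

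Clock genes were called higher in 6 of 14 and lower in 0. The output factor DBP measured 6.20, 5.69 and 4.47 CPM in controls and 24.5, 26.8 and 27.6 CPM with OD (2.30 ± 0.10), and the repressor PER1 17.7, 17.99 and 18.4 CPM and 85.9, 78.0 and 86.4 CPM. PER2, its close relative, went from 35.9, 36.5 and 37.0 CPM to 18.6, 19.3 and 20.4 CPM, a change of -0.91 that did not pass the fold limit except under scaling by library size (-1.04). Of aryl hydrocarbon receptor targets, 1 of 8 tested was called higher, a share near the 9.50% over all genes. This count ran from 0 to 2 across settings, with 0 of 6 by limma on the deposited values. The called gene was CYP1A1, with 4, 0 and 1 reads against 22, 22 and 41, or 18.6-fold (95% exact counting interval 7.65 to 58.7).

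**Figure D3:**
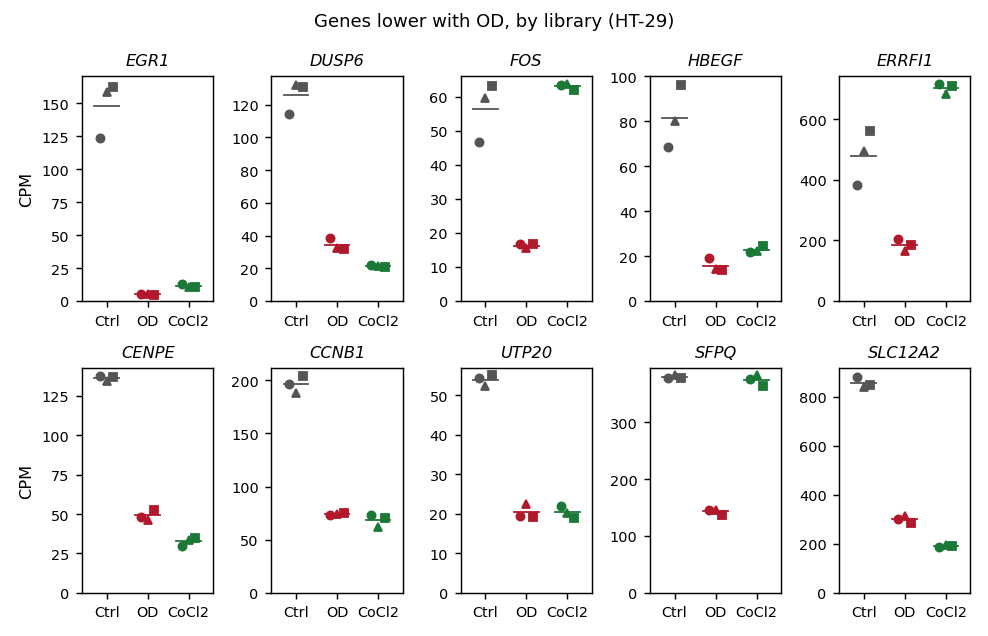
CPM in each HT-29 library for 10 genes that fell with OD, in control, OD and CoCl2 cells (circle, replicate 1, triangle, replicate 2, square, replicate 3, bar, group mean). All OD libraries lie below all controls in each panel, and all CoCl2 libraries of EGR1, FOS, HBEGF, ERRFI1 and SFPQ lie above all OD libraries on this scale. Under library size alone, OD minus CoCl2 was -0.050 for HBEGF, which did not pass FDR. It was -0.67 for EGR1 and -0.89 for SFPQ, short of the fold limit, and -1.46 for FOS and -1.43 for ERRFI1.

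Genes that growth factor signalling switches on were lower in part. The kinase ERK acts within minutes on serum response factor and related factors to induce immediate early genes, and later induces phosphatases and Sprouty proteins that shut it off. Of 23 such genes tested, 9 were called lower and 1 higher, with a median of -0.65 and 18 lower at FDR alone. EGR1, an early zinc finger factor, measured 124, 158 and 163 CPM in controls and 5.02, 5.59 and 4.68 CPM with OD (-4.87 ± 0.10, FDR = 2.5e-23). FOS, of the AP-1 complex, went from 46.7, 59.7 and 63.2 CPM to 16.7, 15.4 and 16.7 CPM (-1.81 ± 0.083) and FOSB from 6.58, 7.76 and 9.91 CPM to 2.90, 3.03 and 3.51 CPM. EGR2 counted 31, 37 and 60 reads in controls and 3, 2 and 3 with OD, a ratio of 0.0683-fold (95% exact counting interval 0.0289 to 0.139).

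Feedback genes of the pathway included several of these. DUSP6, the phosphatase that takes ERK out of action in the cytoplasm, measured 114, 132 and 131 CPM in controls and 38.2, 32.6 and 31.9 CPM with OD (-1.88 ± 0.064). SPRY2 and SPRY4 changed by -1.14 and -1.25, the receptor EPHA2 by -1.33 and MYC by -1.12. DUSP5, the nuclear counterpart of DUSP6, moved the opposite way, from 13.7, 20.7 and 27.6 CPM to 119.9, 89.4 and 97.0 CPM (2.26 ± 0.12). Upstream, of 9 genes for EGFR family receptors and ligands, 0 were higher and 2 lower, against 9.50% and 7.57% over all genes. The ligand HBEGF fell from 68.4, 80.3 and 96.0 CPM to 18.9, 14.198 and 13.6 CPM and the receptor inhibitor ERRFI1 from 384, 494 and 563 CPM to 206, 165 and 184 CPM, whereas EGFR itself was not called.

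The CArG box, the site of serum response factor, stood in 0.980% of all 10718 promoters, 1.18% of those called higher and 0.462% of those called lower. EGR1 was the gene of the ERK list with a match among 16 with a promoter. Its window is printed because EGR1 changed most among the lowered genes, at chr5:138465329-138465428, plus strand, with both matches in capitals.
EGR1: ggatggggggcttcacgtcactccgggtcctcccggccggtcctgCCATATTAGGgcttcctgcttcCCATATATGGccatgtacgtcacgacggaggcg

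Stem cell and Wnt targets were also lower in part. Wnt signals hold beta-catenin in the nucleus, where it keeps crypt base cells dividing. Of 15 tested targets, 6 were called lower and 0 higher (median -0.82). ASCL2, the crypt stem cell factor, measured 4.45, 4.54 and 4.39 CPM in controls and 1.24, 1.22 and 0.851 CPM with OD, and the R-spondin receptor LGR5 2.97, 2.35 and 2.44 CPM and 0.414, 0.466 and 0.372 CPM. EPHB3, which positions crypt cells, changed by -1.66 ± 0.072. AXIN2, the usual reporter of beta-catenin activity, stood at 41.2, 38.9 and 35.2 CPM against 63.2, 65.0 and 61.4 CPM (0.73 ± 0.058, not called). Members that fell and AXIN2 thus did not share a direction. Among BMP targets, ID1 and ID2 were the called ones of 9, both lower, with ID1 at -1.21. Over all genes 7.57% were called lower.

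Mitosis and replication genes gave different counts, and the difference between the lists was not tested. Of 20 mitosis genes, 6 were called lower and 0 higher, with a median of -0.73 and 18 lower at FDR alone. The kinetochore motor CENPE measured 137, 134 and 137 CPM in controls and 48.2, 46.4 and 52.7 CPM with OD (-1.47 ± 0.055), cyclin B1, CCNB1, 197, 188 and 205 CPM and 72.9, 74.3 and 75.1 CPM, and the kinase PLK1 changed by -1.17. CDK1, the partner of cyclin B, was at 124, 131 and 133 CPM against 139.6, 129 and 134 CPM, with overlap. Of 19 replication genes none was called, with 6 higher and 10 lower at FDR alone. The inhibitor CDKN1A, p21, rose from 65.4, 83.5 and 96.4 CPM to 294, 256 and 271 CPM (1.73 ± 0.08). Of 21 p53 targets including CDKN1A, 4 were called higher and 0 lower, against 9.50% and 7.57% over all genes. Under library size alone 3 of them were higher and 1 lower. In bulk RNA, fewer cells in mitosis and less RNA per cell cannot be told apart.

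The cell cycle homology region TTTGAA was present in 8.48% of all promoters, 7.30% of those called higher, 14.5% of those called lower and 8 of 17 mitosis genes. The other motifs searched follow, as shares of all promoters, those called higher and those called lower. The antioxidant element core stood in 12.4, 14.4 and 9.08%, and the hypoxia element core in 23.3, 21.8 and 19.7%. The sterol element stood in 0.858, 1.4 and 0.769%, and the CCAAT box in 35, 36.1 and 32.5%. The metal element core stood in 56.1, 54.8 and 54.3%. The NF-kB site, also added later, stood in 1.94, 3.22 and 1.38%. For TTTGAA, PLK1 is shown as an example at chr16:23678789-23678888, plus strand, with the match in capitals.
PLK1: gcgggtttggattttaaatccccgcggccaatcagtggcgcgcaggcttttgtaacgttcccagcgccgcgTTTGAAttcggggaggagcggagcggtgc

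Ribosome production begins in the nucleolus, where ribosomal RNA is made and processed. Of 16 nucleolar genes, 7 were called lower and 0 higher (median -0.86). UTP20, of the small subunit processome, went from 54.3, 52.4 and 55.1 CPM to 19.5, 22.4 and 19.2 CPM, POLR1A, the large subunit of RNA polymerase I, changed by -1.28, and NOP58, a box C/D snoRNP core protein, by -1.17. NPM1, the abundant nucleolar chaperone, was at 913, 899 and 849 CPM against 847, 774 and 796 CPM and was not called. SFPQ, a splicing and paraspeckle protein, measured 378, 383 and 377 CPM in controls and 146, 146 and 137 CPM with OD (-1.41 ± 0.046, FDR = 1.5e-19). Transcripts of mitochondrial DNA were lower at FDR alone in 10 of 13, with a median of -0.54, and none passed the fold limit. MT-ND3 (-0.97) passed it at -1.11 under library size alone, where the median of the 13 was -0.68, at -1.05 without control replicate 3 and at -1.003 without OD replicate 2. Their share of counts was 6.41 to 7.63% in controls and 5.97 to 6.30% with OD.

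The design allows OD and CoCl2 to be set against each other in the same line. The comparisons share their controls, so the values are given side by side and the difference was tested directly between OD and CoCl2 libraries, where 4734 of 15812 genes were called (29.9%), 3032 higher with OD (19.2%) and 1702 lower (10.8%). Scaling by library size alone moved the median of all genes by 0.50 toward OD and gave 5279 higher and 783 lower, so list counts are given under both scalings where they differ. The labels name DMSO for OD and control and water for the CoCl2 stock, while the study’s methods for Caco-2 have DMSO in the CoCl2 medium too, so whether the vehicle was shared is uncertain. The doses differ, and these are differences between the treatments as given. Of the 1502 genes raised by OD, 426 were called above and 272 below the CoCl2 level. Of the 1197 lowered genes, 353 were called above it and 93 below.

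In the interferon list 7 of 21 genes were called above CoCl2 and 0 below, and 12 above under library size alone, with medians against control of 2.12 for OD and 1.33 for CoCl2. TAP1 was higher with OD by 1.69 ± 0.088 (FDR = 1.4e-15). In the NF-kB list 7 of 20 were above and 1 below (8 and 1 under library size alone). Of all 15812 genes, 3032 (19.2%) were above CoCl2 under the main scaling and 5279 under library size alone. The NF-kB share above CoCl2 thus lay nearer that over all genes under library size alone. TNFAIP2 measured 84.4, 83.3 and 83.3 CPM with CoCl2, near its controls, and was higher with OD by 1.92 ± 0.048. CXCL8 was the member below, by -1.61. CEACAM5 measured 8.07, 6.91 and 7.57 CPM with CoCl2 and differed by 3.36 ± 0.081 (FDR = 8.6e-23). CEACAM6 differed by 2.74 and CEACAM7 by 2.46.

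HIF targets lay on the other side. Under the main scaling 25 of 30 were called below CoCl2 and 0 above (21 and 2 under library size alone), with medians of 0.81 and 3.23 against control. In glycolysis 14 of 20 were below (11 under library size alone). EGLN3, at 270.1, 259 and 279.9 CPM with CoCl2, differed by -3.79 and PFKFB3 by -4.74, both among the 8 lowest of the called genes with a mean of at least 100 counts over the OD and control libraries. HMOX1 was the lowest of these (-7.41 ± 0.063), followed by MT2A (-5.60), MT1E (-5.01), PFKFB3, the microtubule protein MAP1A (-4.22), PFKFB4 and the vasodilator peptide ADM. Cytosolic heat shock genes were below CoCl2 in 7 of 11 and mitochondrially encoded genes in 11 of 13 (2 under library size alone).

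Among called genes with a mean of at least 100 counts over the OD and control libraries, the highest differences were those of AHNAK2 (4.73 ± 0.11), the retinol receptor STRA6, CCL22, AL670729.3, the arginine deiminase PADI2, the monooxygenase CYP1B1, PLIN4 and the calcium channel TRPV6. For STRA6, CYP1B1, PLIN4 and TRPV6 the OD libraries themselves were not called against control (0.76, 0.96, 0.83 and -0.071), and CYP1B1 passed at 1.06 and 1.00 without control replicate 2 or OD replicate 1. PADI2 measured 2.26, 2.41 and 2.44 CPM in controls, 29.3, 26.5 and 26.4 CPM with OD and 2.39, 1.31 and 2.14 CPM with CoCl2. Immediate early genes also differed, FOS by -1.95 ± 0.085, FOSB by -2.19 and ERRFI1 by -1.92. SFPQ, at 376, 383 and 363 CPM with CoCl2, differed by -1.39, and by -0.89, short of the fold limit, under library size alone. Of ER chaperones, 2 of 15 were called above and 0 below (4 above under library size alone). Both shares above lay below those over all genes, 19.2% under the main scaling and 5279 of 15812 under library size alone. HSPA5 differed by 0.072 ± 0.057, or by 0.57 under library size alone (FDR = 2.8e-10, below the fold limit).

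**Figure D4:**
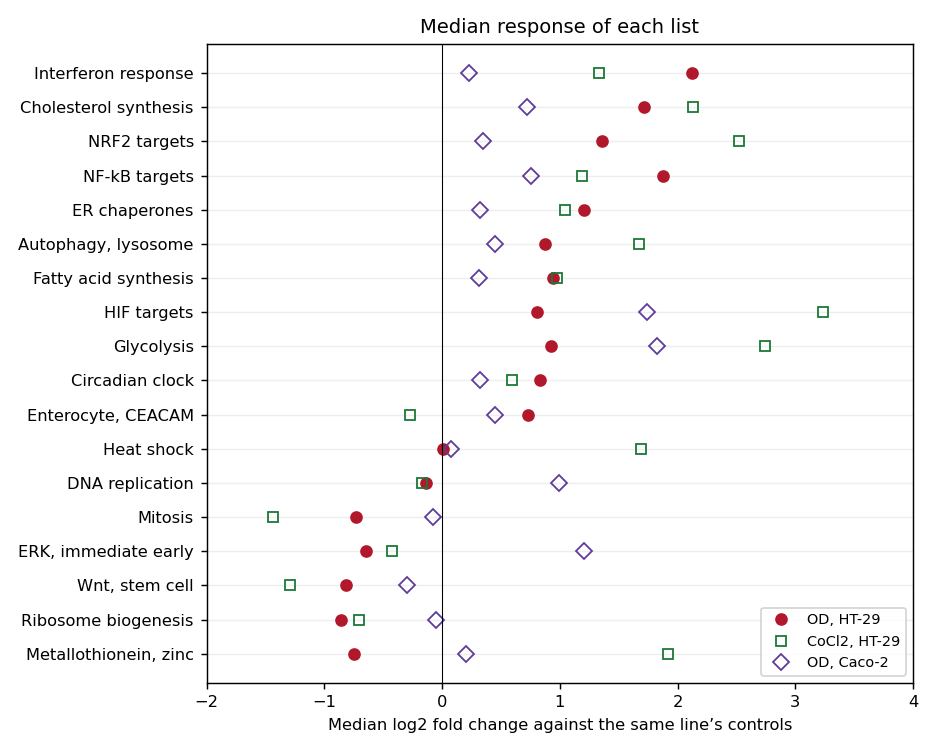
Median log2 fold change of 18 gene lists for OD in HT-29 (filled circles), CoCl2 in HT-29 (squares) and OD in Caco-2 (diamonds), each against its own line's controls. The 2 HT-29 series share controls, and OD in HT-29 has the highest of the 3 medians for interferon (2.12) and NF-kB (1.87) and the lowest for HIF targets (0.81).

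The response to OD was also set against that of differentiated Caco-2 cells, with the difference between lines tested as an interaction in all 18 messenger RNA libraries. Line and differentiation cannot be told apart here. Of 17921 genes tested, 2724 differed (15.2%), 1605 with the higher response in HT-29 (8.96%) and 1119 with the lower (6.24%). In Caco-2 alone 1876 of 16034 genes were called (11.7%), 4.43% higher and 7.27% lower. Among the genes that OD raised in HT-29, 163 were also called higher in Caco-2 and 37 lower, and 348 were not tested there. Among those lowered, 210 were called lower in Caco-2 and 30 higher, and 363 were not tested there.

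The interferon list was higher in HT-29 in 15 of 21 members by the test of the difference and lower in 0, with a Caco-2 median of 0.23. IFIT1 changed by 0.031 ± 0.18 in Caco-2, a difference of 2.75 ± 0.29 (FDR = 1.1e-09). NRF2 targets had 13 of 28 higher in HT-29 and 1 lower, and cholesterol genes 11 of 24 and 0. HIF targets had 14 of 30 lower in HT-29 and 0 higher. The hexokinase HK2 differed by -2.10 ± 0.10.

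Genes that growth factors induce differed widely between the lines. Of 23 ERK targets tested, 17 had the lower response in HT-29 and 0 the higher, and the Caco-2 median was 1.21 against -0.65 in HT-29. FOS changed by 2.20 ± 0.14 in Caco-2 and -1.81 ± 0.083 in HT-29. DUSP6, EPHA2, SPRY4, HBEGF, GPRC5A and the chemokine receptor CXCR4 were called in opposite directions in the lines, up in Caco-2 and down in HT-29. The HT-29 value of GPRC5A (-1.04) fell short of the fold limit without control replicate 3 (-0.95) or OD replicate 2 (-0.99). DUSP5 was raised in both, by 2.72 and 2.26. DNA replication genes were lower in HT-29 by the same test in 13 of 19, and mitosis genes in 6 of 20. CEACAM5 was raised in both lines, by 3.08 in HT-29 and 1.58 ± 0.095 in Caco-2, a difference of 1.48.

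**Figure D5:**
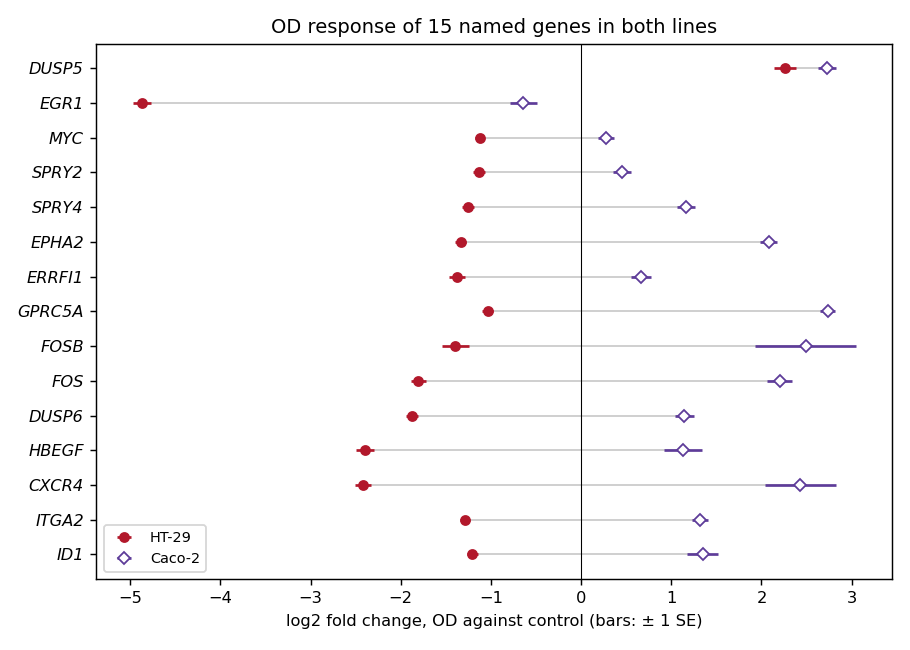
log2 fold change of OD against control in HT-29 (filled circles) and differentiated Caco-2 (open diamonds) for 15 named genes, most of them growth factor targets, with bars of 1 SE. HT-29 values are negative for all but DUSP5, and Caco-2 values are positive for all but EGR1.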

How the data were processed

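Messenger RNA of HT-29 and Caco-2 cells had been sequenced single-end from a stranded kit. Per the labels, reads were trimmed with cutadapt 2.10, checked with FastQC 0.11.9 and aligned with STAR 2.7.5b to GRCh38.p13. The deposited counts are whole, unnormalized reads per gene as the authors made them, and the counter and its use of strand are not given in the sources used here. The authors also deposited log2 values, log2 of a depth- and length-scaled value plus 1, used only for alternatives.

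The counts were tested in R 4.3.3 with edgeR 4.0.16 (glmQLFit, glmQLFTest, two-sided, TMM factors, filterByExpr), all 9 HT-29 libraries in one fit, with Benjamini-Hochberg adjustment over all genes tested. Genes were called at FDR under 0.05 and an absolute log2 fold change over 1. The line difference was an interaction in all 18 libraries. With 3 against 3 libraries an exact permutation test cannot go below p = 0.1, so single values rest on the model across genes. Alternatives used DESeq2 1.42.0 and limma 3.58.1. On simulated counts for the OD comparison (15429 genes), edgeR recovered 100% of 100 genes changed by 1.5 on the log2 scale. The changed genes had ample counts, rose and fell in equal number and were given one fixed replicate spread. The simulation therefore does not cover genes near the floor or the choice of scaling.

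Libraries were grouped by their labels, and depth ranged from 12925719 to 22332639 counts. The 43 gene lists and the members were chosen with earlier results of these data known. Named genes were list members, the 15 highest and 15 lowest fold changes (called, mean count of at least 100, no overlap), the 10 largest CPM gains and losses, and the 8 highest and 8 lowest called genes of the other contrasts with the same minimum count. Ratios of low counts carry a 95% exact interval, which covers counting error only. Over all genes, replicate numbers did not pair the samples (correlation of deviations for equal numbers between -0.04 and 0.02), and the report gives the block beside the interferon list, where replicate 2 stood high. Small RNA libraries were not used here, and some genes are not reported here.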

Additional observations from a re-analysis of the deposited data

Results flagged for a closer look

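The response to OD differed between HT-29 and differentiated Caco-2 cells in 2724 genes, each tested by the interaction of line and treatment in 18 libraries (edgeR quasi-likelihood, Benjamini-Hochberg). The values below are HT-29 minus Caco-2 log2 fold changes. Among called genes with a mean of at least 100 counts over the HT-29 OD and control libraries, XAF1 differed by 7.49, CCL22 by 6.72, CXCL10 by 6.51, RBPMS2 by 6.23, SHROOM4 by 5.97, AL590666.2 by 5.01, CYP4F11 by 4.72 and AKR1C1 by 4.69 at the high end. At the low end of the same genes, CXCR4 differed by -4.86, GPR158 by -4.39, EGR1 by -4.25, FOS by -4.02, FOSB by -3.90, EDN1 by -3.85, GPRC5A by -3.79 and CA9 by -3.72. XAF1, CCL22, CXCL10, SHROOM4, AL590666.2, CYP4F11, GPR158 and CA9 had too few Caco-2 reads to be tested in that line alone, and their differences rest on a handful of reads there and depend on the prior count of the fit. The 3 Caco-2 libraries of each group summed to 0 reads in controls and 11 with OD for CA9 (SE 1.40), 0 and 7 for GPR158 (SE 1.57), 12 and 0 for XAF1, 11 and 0 for SHROOM4, and 10 and 0 for AL590666.2. They summed to 13 and 15 for CCL22, 15 and 2 for CXCL10 and 7 and 6 for CYP4F11. GPR158 (-0.022 ± 0.11) and AL590666.2 (0.21 ± 0.12) were not called in HT-29.

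Further named genes called in opposite directions in the lines were DUSP6 (-3.04), EPHA2 (-3.43), HBEGF (-3.54), ID1 (-2.57), the integrin chain ITGA2 (-2.62), MT2A (-2.62) and SPRY4 (-2.43), all called lower with OD in HT-29 and higher in Caco-2, and AL670729.3 (2.39), for which the reverse held.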

How the results depend on the processing

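For OD against control, DESeq2 called 2623 genes, RLE factors 2716, library size alone 2821, no filter on low counts 3525, a filter of 1 CPM in 3 libraries 2282, and a fit of the 6 libraries alone 2574, against 2699. The FDR without a fold limit passed 10876 genes (5494 higher, 5382 lower) and 592 list genes against 260. On the deposited log2 values limma called 744 (515 higher, 229 lower), and with a pseudocount of 0.1 it called 1295 (821 and 474), on fewer genes tested. Of 38 lists with calls, 15 lost more than 1.5 times in calls on the deposited values and 6 with the smaller pseudocount. On the deposited values HIF targets had 8 of 27 higher (14 of 30 in the reported fit), glycolysis 5 of 19 (9 of 20), Wnt targets 3 of 11 lower (6 of 15), metallothioneins 2 of 7 lower (4 of 10), the mesenchymal list 1 of 4 higher (5 of 5), and the Caco-2-derived lists 25 of 94 higher (49 of 108) and 6 of 25 lower (25 of 46). OD against CoCl2 under library size alone gave 5279 higher and 783 lower. Leaving out 1 library in turn gave 2741 to 2948 genes for OD against control (1497 to 1577 higher, 1244 to 1380 lower), 250 to 264 list genes, 4717 to 4907 against CoCl2 (3024 to 3121 higher, 1689 to 1786 lower) and 2562 to 2782 for the line difference (1496 to 1650 higher, 1052 to 1132 lower). With the replicate number as a block the counts were 2700, 4726 and 2673, and the block changed the call of none of the 171 named genes. Signs turned in 3 genes that were not called: CDK1 under library size alone (-0.083), GPR158 (between -0.085 and 0.067 with 1 library left out) and TRPV6 (between -0.24 and 0.19). The causes were not tested. Depth limits genes near 3 counts a library, among them TNF, LTB and CYP1A1.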

Other observations

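SNHG5, a host gene of small nucleolar RNAs, spread more widely than any other gene of at least 500 mean counts. It measured 500.2, 111 and 40.2 CPM in the OD libraries, 357, 246 and 51.7 CPM with CoCl2 and 26.9, 32.2 and 30.8 CPM in controls. The highest OD library was 12.5 times the lowest, against a median of 1.07 over 6606 genes.

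OD and CoCl2 were compared with the same controls. Of the 1502 genes raised by OD, 895 were also called higher with CoCl2 and 74 lower. Of the 1197 lowered genes, 976 were also called lower with CoCl2 and 10 higher. Over all genes tested, 17.4% were called higher and 23.9% lower with CoCl2. Among the 74 were DOC2B, a calcium sensor of vesicle fusion, and the homeobox gene MEIS3. DOC2B counted 16, 11 and 15 reads in controls, 38, 26 and 38 with OD and 0 in each CoCl2 library.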
